A study of Mus musculus with 19 samples.

Results

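Simple epithelial keratins are the keratins of single-layered and glandular epithelia, and 4 genes of this kind, Krt7, Krt8, Krt18 and Krt19, were taken from a table of 34807 genes by matching each Ensembl identifier to its symbol. All 4 were in the table and all 4 passed the filter on low counts. Bulk RNA sequencing had been done on 15 skin tumours of mice and on normal skin (4 samples), to compare tumours that start in different populations of keratinocytes. Every tumour is labelled a squamous cell carcinoma and carried BRAFV600E, an activated form of a MAPK pathway kinase, which had been switched on in the skin by topical drug and an inducible CreRT2 recombinase in mice whose age the labels give as 7 to 20 weeks.

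The promoter in front of Cre was that of Ivl in 6 tumours (Ivl:BRAFV600E), of K5 in 5 (K5:BRAFV600E) and of K14 in 4 (K14:BRAFV600E). The 4 samples of normal skin came from wild-type (WT) mice, and the labels call all samples female. Per the methods of the study the lines were kept on a C57BL/6J background and Ivl mice received tamoxifen while K5 and K14 mice received 4-hydroxytamoxifen, so promoter and agent cannot be told apart. The study also reports a much longer time to tumour onset in Ivl mice than in K5 and K14 mice. Promoter and time to tumour thus cannot be told apart either. Whether the wild-type mice were treated, and whether the tumours came from separate mice, is not given, and p-values measure only the spread between these samples. Ivl is active in differentiating keratinocytes, and K5 and K14 in basal keratinocytes. Per the study the Ivl promoter also reaches committed cells within the basal layer. The name basal is thus only a short label for the K5 and K14 lines. For most comparisons the basal tumours, K5 and K14, were taken as 1 group of 9 (K5/K14).

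Keratins form filaments from pairs of a type I and a type II protein. Krt8 (type II) and Krt18 (type I) are the first keratins of the embryo and obligate partners in simple epithelia such as liver and gut. Krt7 (type II) is known from ducts and glands, and Krt19 (type I), a small keratin without a tail domain, from glands and from the bulge of the hair follicle. In skin, Merkel cells, the touch receptors of the epidermis, carry Krt8, Krt18 and Krt20, while keratinocytes make Krt5 and Krt14 in the basal layer and Krt1 and Krt10 above it.

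On GRCm38, Krt7 (ENSMUSG00000023039) lies at chr15:101411043-101430313 on the plus strand, with 9 exons in its longest transcript. Krt8 (ENSMUSG00000049382, 9 exons) lies at chr15:101996698-102004482 on the minus strand and Krt18 (ENSMUSG00000023043, 7 exons) at chr15:102028180-102032027 on the plus strand. These partners are neighbours that point away from each other, with 23697 bp and 0 annotated genes between them. Krt19 (ENSMUSG00000020911, 6 exons) lies apart at chr11:100140810-100148665 on the minus strand, in the type I keratin cluster. The start regions of Krt8 and Krt18 are shown because theirs was the only correlation between members over the 15 tumours that passed after adjustment. Each is a window of 300 bases around the start of the gene in RefSeq (GRCm38.p6), in the direction of transcription. Krt8 is at chr15:102004293-102004592 (minus strand) and Krt18 at chr15:102027966-102028265 (plus strand), and capitals mark the E-box (CANNTG) and the TATA box (TATAAA, on either strand).
Krt8: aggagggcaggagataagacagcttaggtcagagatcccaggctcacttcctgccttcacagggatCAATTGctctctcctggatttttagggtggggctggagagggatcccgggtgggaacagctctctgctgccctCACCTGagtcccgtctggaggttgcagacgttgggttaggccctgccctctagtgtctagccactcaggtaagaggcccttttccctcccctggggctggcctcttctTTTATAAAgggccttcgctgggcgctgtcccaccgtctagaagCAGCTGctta
Krt18: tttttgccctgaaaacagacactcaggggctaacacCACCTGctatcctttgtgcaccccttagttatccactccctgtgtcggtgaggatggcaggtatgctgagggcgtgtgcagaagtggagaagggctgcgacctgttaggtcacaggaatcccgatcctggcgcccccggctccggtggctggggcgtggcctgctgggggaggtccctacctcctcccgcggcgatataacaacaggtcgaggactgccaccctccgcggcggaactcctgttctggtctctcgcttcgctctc
The Krt8 window held 3 E-boxes and 2 overlapping TATA box matches (TATAAA at -1 and, on the other strand, TTTATA at -3), and the Krt18 window 1 E-box and no TATA box in these letters. An E-box was present in 72.3% and a TATA box in 13.6% of 32851 promoter windows of the same length, so the former is common. AP-1 (TGANTCA, in 7.81% of windows), the ETS core (CCGGAA, 14.9%) and the CCAAT box (37.4%) were not found in either strand of the windows of Krt7, Krt8 or Krt18. The GC box of Sp1 (GGGCGG, 35.7%) was found 4 times for Krt7 alone. A match is a description of letters and not a site in use. The table held no window for Krt19.

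Values are given as CPM, the counts of a gene relative to the library size, scaled between libraries by the trimmed mean of M values (TMM). Total counts per library lay between 45715309 and 72609771. Behind the CPM values stood 16 to 341 counts for Krt7, 1 to 253 for Krt8, 21 to 347 for Krt18 and 4 to 222 for Krt19 in a library, so counting error alone is large at the lower ends. Ivl tumours 1, 2 and 3 and K5 tumour 1 are 4 libraries that an earlier analysis of these data set apart for a possible trace of the batch adjustment of the authors. The labels give no batch. A supplementary legend of the study lists batches of 4 and 15 samples, sequenced at different times, without naming the samples. Whether these 4 libraries are that batch of 4 was not tested here. Each comparison was repeated within the other 15. TMM factors ranged from 1.43 to 1.66 for skin and from 0.806 to 1.15 for tumours, so this scaling raises tumours relative to skin. The median log2 fold change of all 32031 genes tested was -0.46 for Ivl tumours against skin and -0.60 for K5/K14 tumours against skin. With library totals alone it was -1.13 and -1.40, and the genes called in Ivl tumours against skin went from 6535 raised and 4980 lowered to 2868 and 15460, and in K5/K14 tumours from 7440 and 12476 to 3239 and 20668.

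All 4 members were rare transcripts beside the keratins of the epidermis. Levels of different genes are compared here per length, as mean CPM per kb of merged exons. Krt18 stood highest of the members in normal skin at 1.43 CPM per kb, followed by Krt19 at 0.883, Krt8 at 0.879 and Krt7 at 0.173. Among 53 protein-coding keratin genes these were ranks 39, 40, 41 and 50. Krt14 led in skin with 1693 CPM per kb, and Krt10 (853), Krt5 (716) and Krt1 (244) were also far above.

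In Ivl tumours the means per kb were 2.22 for Krt18, 0.368 for Krt8, 0.350 for Krt19 and 0.280 for Krt7, and in K5/K14 tumours 2.00, 0.228, 0.122 and 0.353. Merged exons of Krt7 include a long alternative exon. Per kb of the transcript with the longest coding sequence, Krt7 stood at 0.297 in skin, 0.483 in Ivl and 0.607 in K5/K14 tumours, which in Ivl tumours puts it above Krt19 (0.412) and Krt8. Krt14 stood at 17200 CPM per kb of merged exons in Ivl and at 22638 in K5/K14 tumours. The 4 members together made up 0.0574% ± 0.0388 (SD, n = 4) of the keratin transcripts per length in skin. In Ivl tumours they made up 0.00839% ± 0.00778 (n = 6), and in those of the basal lines 0.00469% ± 0.00318 (n = 9). The lowest skin library was at 0.0165% and the highest tumour, an Ivl tumour, at 0.0231%, so these ranges met. The share depends on the denominator, in which Krt14 was higher in the tumours. In bulk tissue, fewer cells of a type and less RNA per cell cannot be told apart.

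**Figure D1:**
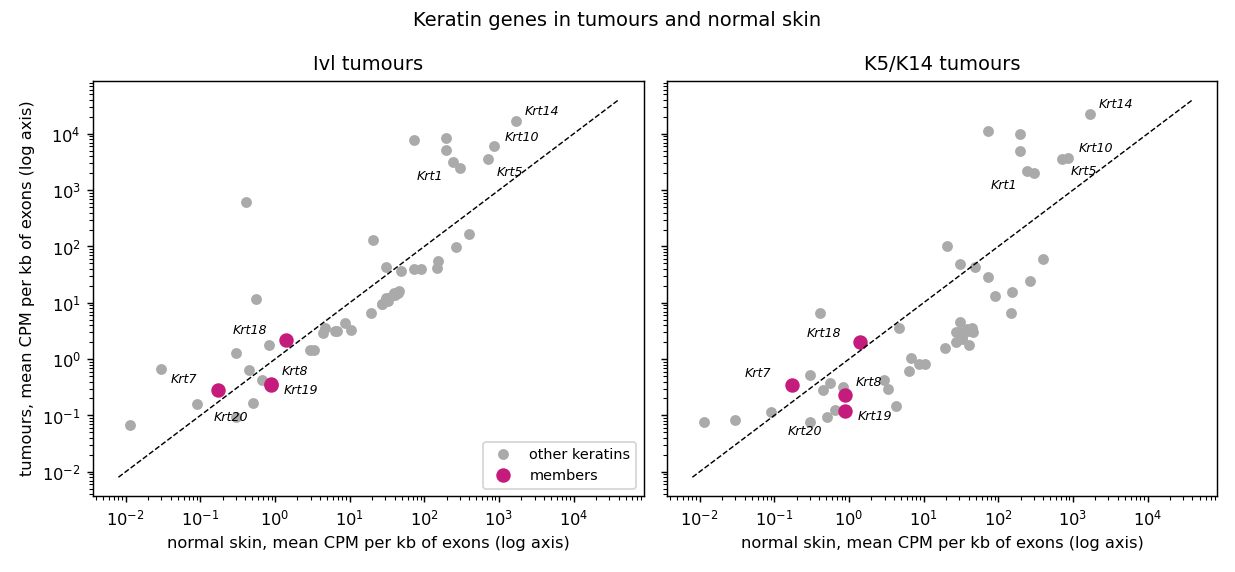
Mean level of 53 keratin genes in tumours (vertical axis) against normal skin (horizontal axis), both in CPM per kb of exons on log axes, for Ivl tumours (left) and K5/K14 tumours (right). Each point is 1 gene, the dashed line marks equal levels and the members are in colour. The members lie at the low end, Krt19 and Krt8 below the line and Krt7 and Krt18 above it, while Krt14, Krt10, Krt5 and Krt1 lie above it at the high end.

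Krt19 was the member farthest from skin in K5/K14 tumours. In the skin libraries it stood at 1.79, 0.686, 2.08 and 1.99 CPM. In the K5 tumours it stood at 0.238, 0.304, 0.339, 0.187 and 0.0864 CPM, and in the K14 tumours at 0.442, 0.161, 0.0958 and 0.188. All 9 K5/K14 tumours lay below the lowest skin library.

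In the 6 Ivl tumours Krt19 ranged from 0.0768 to 1.56 CPM with a median of 0.494. Ivl tumours 2 and 3, at 1.13 and 1.56, reached into the range of skin, and the other 4 lay below it. By median the order was skin (1.89), Ivl (0.494), K5 (0.238) and K14 (0.175), and the ranges of the 3 tumour groups overlapped.

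Krt8, the type II partner of Krt18, was at 3.34, 0.573, 0.909 and 2.07 CPM in skin. The K5 tumours held 0.127, 0.0253, 0.768, 0.770 and 0.648 CPM and the K14 tumours 1.21, 0.0231, 0.216 and 0.230. K5 tumour 2 and K14 tumour 2 held a single count each. Of the 9 K5/K14 tumours, 5 lay below the lowest skin library and 4 within the range of skin.

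The Ivl tumours ranged from 0.187 to 2.25 CPM for Krt8 with a median of 0.312. Again Ivl tumours 2 and 3 were highest, at 1.07 and 2.25, and the other 4 lay below all skin. The order by median was skin (1.49), K5 (0.648), Ivl (0.312) and K14 (0.223), with overlap between every pair of neighbours. Of the 50-base stretches of Krt8, 26.9% occur also in its pseudogene Krt8-ps, so a part of its reads may have been counted there or left out. Krt8-ps itself held at most 0.187 CPM. In K5 tumour 2 and K14 tumour 2, however, it held 3 counts each, more than the single count of Krt8.

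Krt18 showed a different pattern. It was at 4.42, 0.236, 0.975 and 2.58 CPM in skin, a wide spread. The K5 tumours held 1.08, 1.82, 3.52, 8.09 and 3.11 CPM and the K14 tumours 2.51, 0.668, 2.47 and 2.57. The Ivl tumours ranged from 1.88 to 5.22 with a median of 3.17. Skin covered nearly the whole range of the tumours, and only Ivl tumour 3 and K5 tumour 4 lay above it. By median the order was Ivl (3.17), K5 (3.11), K14 (2.49) and skin (1.78), all overlapping.

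Krt7, the type II keratin of ducts, was the steadiest in skin, at 1.12, 1.5, 1.44 and 0.810 CPM. The K5 tumours held 0.985, 3.14, 3.05, 1.03 and 0.346 CPM and the K14 tumours 2.25, 7.86, 1.41 and 2.30. The Ivl tumours ranged from 0.890 to 4.96 with a median of 1.3. The tumours spread to both sides of skin, with 5 of the 9 K5/K14 tumours above the highest skin library and 1 below the lowest. The order by median was K14 (2.27), Ivl (1.3), skin (1.28) and K5 (1.03), all overlapping. Exons of Krt7 overlap those of Gm671 on the other strand, which held at most 0.138 CPM.

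**Figure D2:**
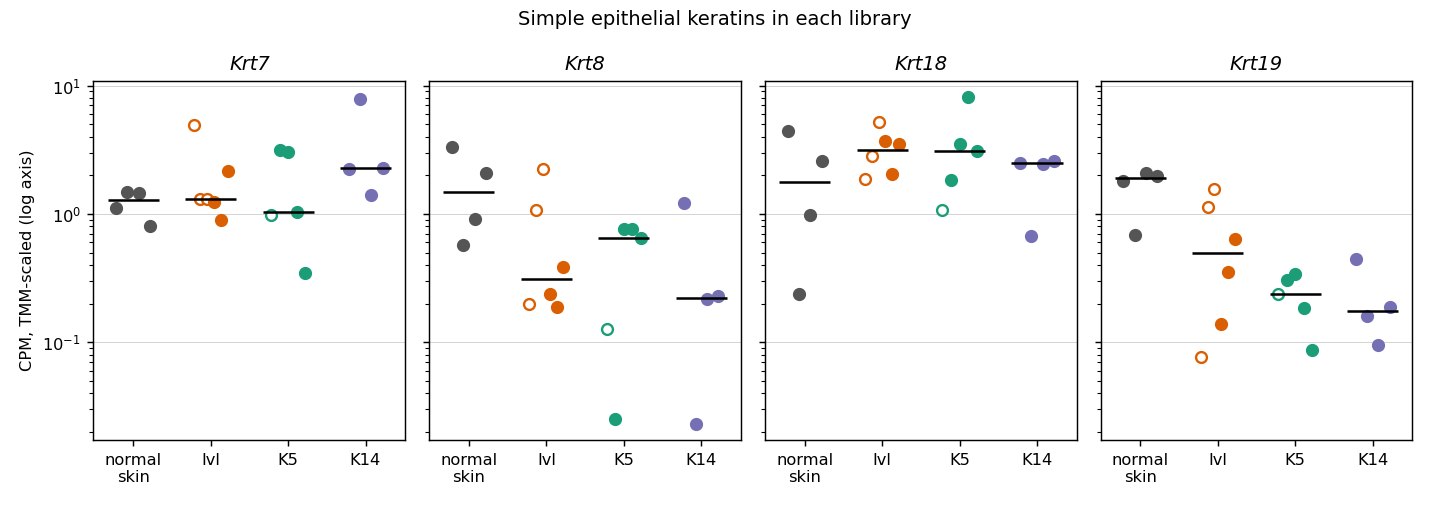
CPM of the 4 members in each of 19 libraries, TMM-scaled, on a log axis shared by the panels. Each point is 1 library, open points are Ivl tumours 1 to 3 and K5 tumour 1 and the bar is the median of the group. The K5 and K14 points for Krt19 all lie below the 4 skin points, while the groups overlap for Krt18 and Krt7.

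The first comparison asked how tumours of the Ivl population differed from normal skin. None of the 4 members passed an adjusted p under 0.05 in edgeR's quasi-likelihood test, at a background of 35.9% of 32031 genes (20.4% raised and 15.5% lowered). Krt19 was at a log2 fold change of -1.33 (SE 0.62, adjusted p = 0.0948, edgeR, unadjusted p = 0.0447), the only member with an unadjusted p under 0.05, and Krt8 at -1.24 (SE 0.87). Krt7 was at 0.70 (SE 0.63) and Krt18 at 0.64 (SE 0.64), and with library totals these became -0.003 and -0.06, so they have no firm direction.

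The Ivl result depended on which libraries were used. Within the 15 libraries, with 3 Ivl tumours, Krt8 was lower by 2.65 on the log2 scale (log2 fold change -2.65, SE 1.02, adjusted p = 0.0379, edgeR) and Krt19 was at -2.12 (SE 0.60, adjusted p = 0.00814). So 2 of 4 members were lowered and 0 raised, at a background of 32.7% and 22.2% of 31971 genes. All 3 of these Ivl tumours lay below all skin for both genes, as did 35.5% of all genes. Leaving out Ivl tumour 3 alone took Krt19 over all other libraries to -1.81 (adjusted p = 0.0222, edgeR).

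The basal tumours were compared with the same 4 skin samples, so this comparison and the previous one share their controls. In K5/K14 tumours Krt19 fell 7.15-fold (log2 fold change -2.84, SE 0.56, adjusted p = 0.00036, edgeR). Krt8 fell 3.84-fold (-1.94, SE 0.79, adjusted p = 0.0389). Krt7 was at 1.03 (SE 0.61, adjusted p = 0.145) and Krt18 at 0.49 (SE 0.60, adjusted p = 0.483). Thus 2 of 4 members were lowered and 0 raised, where 62.2% of all genes were called, 38.9% lowered and 23.2% raised, a share too close to the background to set 4 genes apart. For Krt19 all 9 tumours were lower than all skin, a pattern seen in 24.6% of genes.

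Set against the median of all genes, the log2 differences were -2.24 for Krt19, -1.34 for Krt8, 1.09 for Krt18 and 1.63 for Krt7, and with library totals -2.22, -1.34, 1.05 and 1.64. Taking the median away removes most of the effect of scaling, so the likeness of these values was to be had by construction. Without that step, library totals gave larger falls of 12.3-fold for Krt19 (-3.62) and 6.70-fold for Krt8 (-2.74), and the sign of Krt18 turned (-0.35, SE 0.60). Within the 15 libraries Krt19 was at -2.85 (adjusted p = 5.04e-05, edgeR) and Krt8 at -1.81 (adjusted p = 0.0337), with 42.3% of all genes lowered. The Krt8 call was lost when any of 6 libraries was left out. Its value was then -1.82 without K5 tumour 1, -1.78 without K5 tumour 2, -1.85 without K14 tumour 3, -1.86 without K14 tumour 4, -1.87 without skin sample 4 and -1.41 without skin sample 1, with adjusted p from 0.0513 to 0.168 (edgeR). The Krt19 call held with each of the 19 libraries left out in turn, from -3.11 to -2.71.

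**Figure D3:**
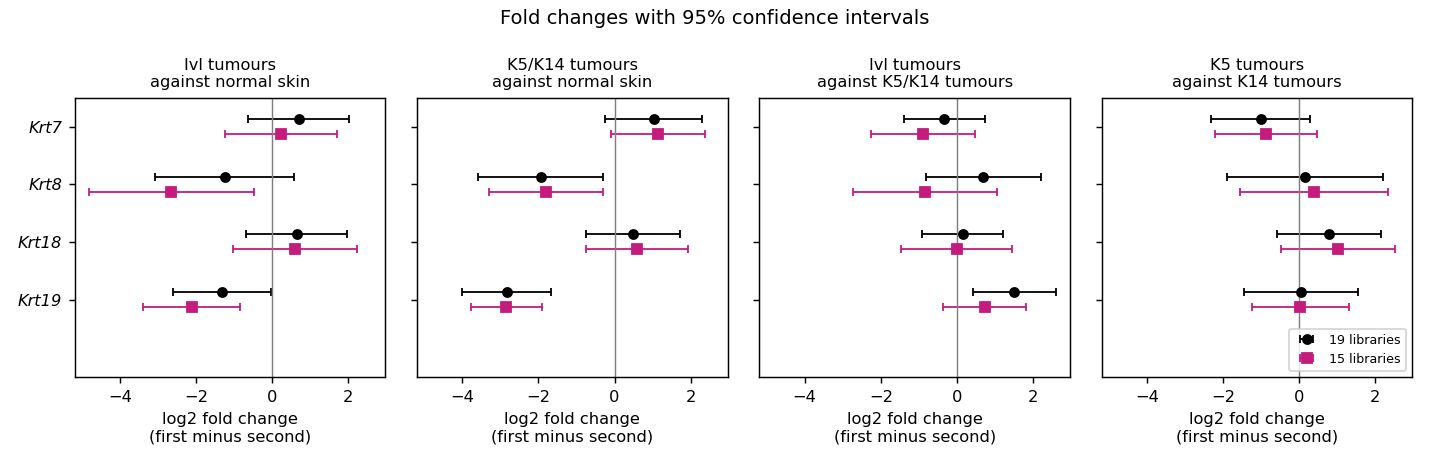
Log2 fold change of each member (first group minus second) in 4 comparisons, with 95% confidence intervals from edgeR, over 19 libraries (black circles) and within 15 (squares). The intervals of Krt19 and Krt8 in K5/K14 tumours against skin lie below 0, and those of Krt7 and Krt18 cross 0 in every panel.

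Tumours of the Ivl population were next compared with K5/K14 tumours. No member passed, at a background of 2.36% of genes. The largest value was that of Krt19, 1.51 higher in Ivl tumours (log2, SE 0.52, 95% interval 0.42 to 2.60, adjusted p = 0.111, edgeR), and 3 of the 6 exceeded the highest of the 9 others. Within the 15 libraries it was 0.73 (interval -0.36 to 1.82). Krt8 was at 0.70 and within the 15 libraries at -0.84, so it has no stable direction, and Krt18 (0.16, interval -0.91 to 1.22) and Krt7 (-0.33, interval -1.40 to 0.74) did not pass.

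Between K5 and K14 tumours no gene passed in edgeR (0% of genes, with 1945 genes at an unadjusted p under 0.05, and 173 called by DESeq2). Krt7 was at -1.02 (log2, 95% interval -2.31 to 0.28), Krt18 at 0.78 (-0.60 to 2.15), Krt8 at 0.15 (-1.90 to 2.20) and Krt19 at 0.05 (-1.46 to 1.55). All 4 intervals hold 0.

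The balance of the partners was then examined, since a type II keratin needs a type I keratin to form filaments. The log2 ratio of Krt8 to Krt18 counts was -0.40, 1.17, -0.10 and -0.31 in skin, with more Krt8 than Krt18 in skin sample 2 alone (51 against 21 counts). These counts were not divided by length, and merged exons measure 1958 bp for Krt8 and 1437 bp for Krt18. Equal counts are thus not equal levels per length, while differences between groups do not depend on length. In the K5 tumours it was -2.79, -4.98, -2.15, -3.34 and -2.21 and in the K14 tumours -1.04, -3.63, -3.33 and -3.30. In the Ivl tumours it lay between -3.78 and -1.2 with a mean of -2.62 ± 1.06 (SD, n = 6). All 15 tumours had a lower ratio than all 4 skin libraries. How often the ratio of other pairs of genes separates tumours from skin in this way was not tested.

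The mean difference was -3.06 for K5/K14 tumours against skin (exact permutation test, two-sided, p = 0.0014, the smallest p that 715 splits allow, adjusted p = 0.0112 over 8 ratio tests). For Ivl tumours it was -2.71 (exact permutation test, p = 0.00952, adjusted p = 0.0381). Within the 15 libraries the differences were -3.09 (adjusted p = 0.0162, exact permutation test) and -3.45 (adjusted p = 0.0762, with p = 0.0286 the smallest that 35 splits allow). Leaving out any one of Ivl tumours 2 to 6 took the Ivl value to between -2.99 and -2.47 and its adjusted p to 0.0635. The ratio within a library depends on the scaling only through a prior count of 2, added in proportion to the scaled library size. That prior weighs most in the tumours with a single count of Krt8. Ivl and K5/K14 tumours differed by 0.36 (p = 0.542, exact permutation test) and K5 and K14 tumours by -0.27 (p = 0.714).

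Taken as sums per length, the ratio of type II (Krt7 and Krt8) to type I (Krt18 and Krt19) was -0.99 ± 0.58 (log2, SD, n = 4) in skin, -2.09 ± 0.84 (n = 6) for the Ivl line and -1.75 ± 1.2 (n = 9) for the basal lines. None of the 4 comparisons of that ratio passed after adjustment, and the difference of Ivl tumours from skin was -1.11 (exact permutation test, p = 0.0619, adjusted p = 0.165). Without Ivl tumour 1, which had the highest Krt7 of its group, it was -1.37 (adjusted p = 0.0423, exact permutation test). K14 tumour 2 was the only library with more type II than type I, at 0.95. It combined the highest Krt7 of all libraries, 341 counts, with 29 counts of Krt18 and 1 of Krt8.

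Across the 15 tumours Krt8 and Krt18 varied together. Pearson's r of log2 CPM was 0.75 (permutation p = 0.0013, adjusted p = 0.0078 over 6 pairs of members) and Spearman's rho was 0.80 (permutation p = 0.00059, adjusted p = 0.00354). Within the groups r was 0.71 in the 6 Ivl tumours and 0.75 in the 9 K5/K14 tumours. Without Ivl tumour 3 and K14 tumour 2, the tumours farthest from the median of Krt8, r was 0.58, and without K14 tumour 2 alone it was 0.65 (adjusted p = 0.0663, permutation test). In the 11 tumours outside the 4 libraries r was 0.73 (adjusted p = 0.0472, permutation test), and 0.42 without K5 tumour 2 and K14 tumour 2. The relation thus rested in part on tumours with a single count of Krt8.

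No other pair passed. Krt8 and Krt19 had r = 0.52 (adjusted p = 0.145, permutation test) over 15 tumours, 0.87 within Ivl tumours and 0.14 within K5/K14 tumours. Krt18 and Krt19 had r = 0.27. Krt7 had r = -0.44 with Krt8, -0.46 with Krt18 and -0.04 with Krt19, and the first of these was -0.18 without K5 tumour 5 and K14 tumour 2.

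**Figure D4:**
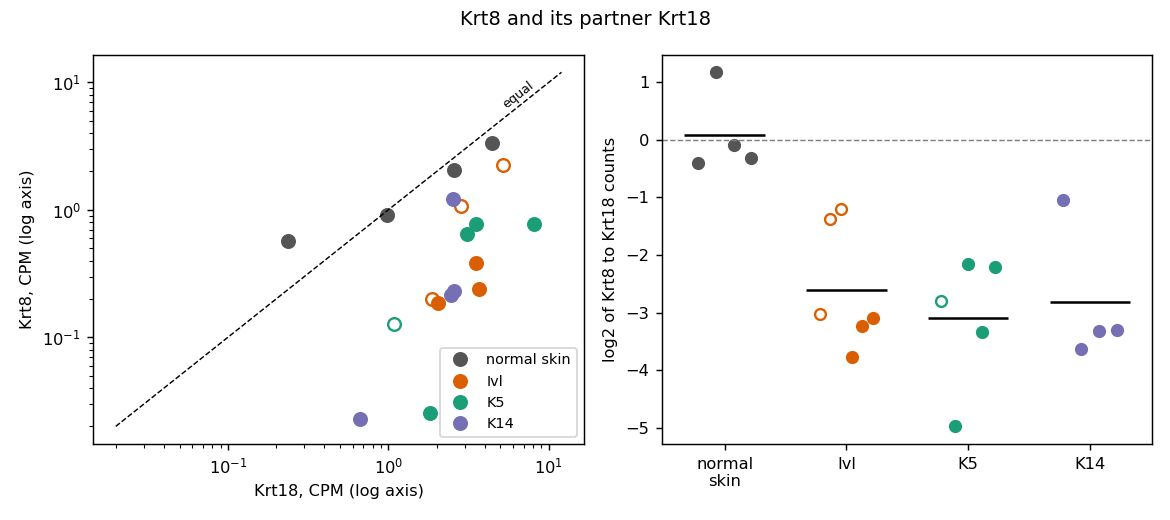
Left, CPM of Krt8 (vertical) against Krt18 (horizontal) in 19 libraries on log axes, with a dashed line at equal CPM, not scaled for length. Right, log2 ratio of Krt8 to Krt18 counts by group, with the mean as a bar, open points being Ivl tumours 1 to 3 and K5 tumour 1. The skin libraries lie around the dashed lines and all 15 tumours lie below the skin libraries on the right.

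The genes whose pattern over the 15 tumours was most like each member, by Pearson's r of log2 CPM among 14932 or 14933 genes with a mean over 1 CPM, are given as a description. They were Cystm1 (r = 0.91), Stbd1 (0.91) and Mefv (0.90) for Krt8, and Tlr13 (0.83), P2ry13 (0.79) and Spp1 (0.78) for Krt18. For Krt19 they were Mstn (0.93), Mctp1 (0.93) and Sbk2 (0.92), and for Krt7 Zswim1 (0.87), Kctd15 (0.86) and Psd4 (0.83). In the 11 tumours outside the 4 libraries Cystm1 (0.94) and Zswim1 (0.94) were again among the 3 highest for their member. The other genes of each list differed there.

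Levels of other tissue in the samples were then set beside Krt19 and Krt8. The counts of list genes given from here on stand beside the share of all genes called in the same setting. Over the 19 libraries this was 38.9% lowered and 23.2% raised in K5/K14 tumours, and 15.5% and 20.4% in Ivl tumours. Within the 15 libraries it was 32.7% lowered and 22.2% raised in Ivl tumours. With library totals 20668 of 32031 genes were lowered and 3239 raised in K5/K14 tumours, and 15460 and 2868 in Ivl tumours. The 10 genes of the hair follicle bulge and outer root sheath summed to 861 to 1765 CPM in skin and to 182 to 481 in K5/K14 tumours, and 10 of 10 fell in K5/K14 tumours (median log2 fold change -2.37), among them Lhx2 (-4.56), a regulator of bulge stem cells, and Lgr6 (-2.90). The skeletal muscle list, from the muscle layer below mouse skin, summed to 3114 to 13379 CPM in skin and 11.1 to 656 in K5/K14 tumours, and 9 of 10 genes fell, led by Ttn (-7.83) and Myh4 (-7.03).

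Of the Ivl tumours, 2 and 3 had summed muscle markers of 6493 and 2632 CPM and summed bulge markers of 954 and 998, within or near the range of skin. The other 4 had 6.39 to 540 and 252 to 447. Ivl tumours 2 and 3 were also those with the highest Krt19 and Krt8, and Ivl tumour 1, with the lowest muscle sum of all libraries, had the lowest Krt19 of all, while its bulge sum (447) was above that of 8 of the 9 K5/K14 tumours. K14 tumour 2, with the lowest Krt8, had the next highest bulge sum (368) of the K5/K14 tumours after K14 tumour 1. Among K14 tumours, tumour 1 had the highest muscle sum (656), Krt19 (0.442) and Krt8 (1.21). Skin sample 2 had the highest muscle (13379) and bulge (1765) sums of all libraries. Its Krt19 (0.686) and Krt8 (0.573) were nevertheless the lowest of skin. Of sebaceous gland genes 7 of 10 fell in K5/K14 tumours (median -2.49), among them Scd3 (-4.59) and Mc5r (-4.54). In Ivl tumours 2 of 10 bulge, 0 of 10 sebaceous and 0 of 10 muscle genes fell, and within the 15 libraries 7, 5 and 4. The part of these tissues in the values of Krt19 and Krt8 was not tested.

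**Figure D5:**
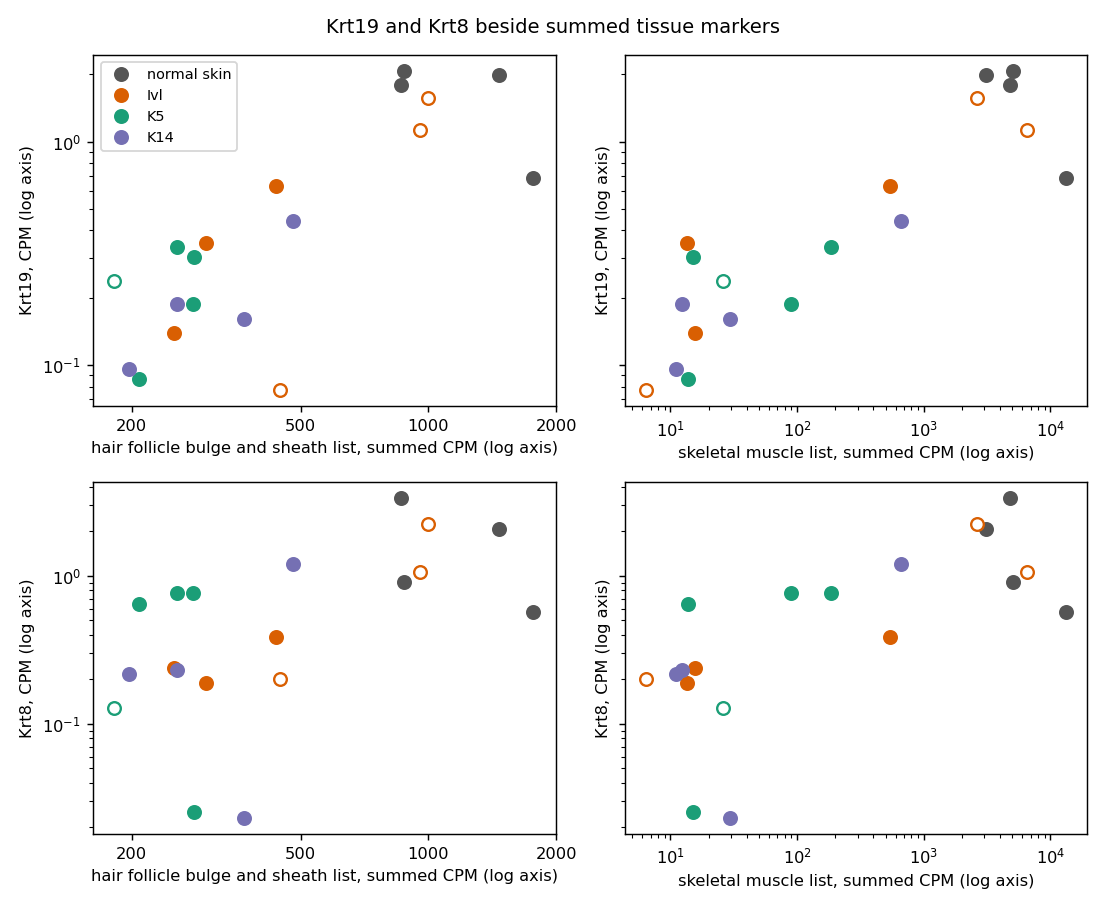
CPM of Krt19 (top) and Krt8 (bottom) against the summed CPM of 10 hair follicle genes (left) and 10 skeletal muscle genes (right) in 19 libraries, on log axes, open points being Ivl tumours 1 to 3 and K5 tumour 1. The skin libraries and the Ivl tumours with 6493 and 2632 CPM of muscle genes lie at the right of the panels, and the other tumours lie to their left. For Krt19 those at the right also lie highest. For Krt8 they do not: skin sample 2 (0.573 CPM) lies below K14 tumour 1 (1.21) and K5 tumours 3, 4 and 5.

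Merkel cell genes were called in about the same shares as all genes in K5/K14 tumours. Of 11 genes 10 were tested, and Atoh1, a factor that defines these cells, was filtered out for low counts. In K5/K14 tumours 4 fell and 2 rose (median log2 fold change -1.61, against -0.60 for all genes, and 7 fell and 1 rose with library totals), and in Ivl tumours 1 fell and 2 rose (median -0.26). Krt20, the keratin of Merkel cells and also of gut epithelium, was at 0.607 to 1.5 CPM in skin, 0 to 1.19 in Ivl tumours and 0 to 0.443 in the others. It fell in K5/K14 tumours (-2.47, SE 0.95, adjusted p = 0.0308, edgeR) and did not pass in Ivl tumours (-1.62, adjusted p = 0.209), where it was at -3.73 (adjusted p = 0.0218) within the 15 libraries. Isl1, another Merkel cell factor, was at -4.26 in K5/K14 tumours.

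The genes that rose were Chga, a granule protein of neuroendocrine cells (3.31 in K5/K14 and 2.88 in Ivl tumours), with Piezo2, the touch channel, in K5/K14 tumours (1.44) and Sox2 in Ivl tumours. Sox2, a transcription factor of Merkel cells and of stem cells, was at 15.02, 2.84, 2.86, 31.2, 32.0 and 4.49 CPM in Ivl tumours 1 to 6, at 0.732 to 1.71 in skin and at 0.127 to 1.45 in K5/K14 tumours (4.22 higher in Ivl than in K5/K14 tumours, adjusted p = 0.00238, edgeR). Summed Merkel cell genes, of which Sox2 is one, were 11.1 to 19.3 CPM in skin, 10.5 to 43.5 in Ivl and 10.9 to 25.1 in K5/K14 tumours. Without Sox2, an alternative chosen after seeing the data, they were 9.37 to 17.9 in skin, 6.05 to 13.9 in Ivl and 10.2 to 24.6 in K5/K14 tumours.

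Of 15 other genes of simple and glandular epithelia, 9 rose and 4 fell in K5/K14 tumours (median 1.04), and 8 rose and 0 fell in Ivl tumours (median 1.39). With library totals 6 rose and 5 fell in each. Slpi, a secreted protease inhibitor, was at 1063 ± 582 CPM (SD, n = 9) in K5/K14 and 1231 ± 1077 (n = 6) in Ivl tumours against 2.51 ± 1.78 (n = 4) in skin, a log2 fold change of 8.72 and 8.93. Wfdc2, a related inhibitor of glands, rose by 3.79 and 4.99 (log2). Krt23 did not pass in either comparison (-0.15 and -0.42).

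Of 14 keratin partners and scaffolds, the plakins, plakophilins and other proteins to which filaments attach, 9 rose and 4 fell in K5/K14 tumours (median 1.01) and 9 rose and 2 fell in Ivl tumours (median 0.99). With library totals these were 6 and 5 in each. Pkp1 (1.81) and Evpl (1.70), of the desmosome and cornified envelope, rose most in Ivl tumours. Eppk1, a plakin that binds Krt8 and Krt18 filaments, fell most in K5/K14 tumours (-2.52, from 311 ± 125 to 54.4 ± 14.9 CPM), followed by Pkp2 (-1.91), the plakophilin of simple epithelia and heart.

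Of 16 transcription factors picked as candidate regulators of simple keratin promoters, 13 rose and 2 fell in K5/K14 tumours (median 1.0). In Ivl tumours 8 rose and 1 fell (median 0.65). With library totals 7 rose and 2 fell in K5/K14 tumours (median 0.18) and 6 rose and 2 fell in Ivl tumours (median -0.02). Fosl1, of AP-1, rose by 4.69 and 3.99 (log2) in K5/K14 and Ivl tumours, from 0.671 ± 0.209 to 17.3 ± 9.38 and 10.6 ± 7.24 CPM. Elf3, an ETS factor of epithelia, rose by 3.56 and 3.45. Of the 4 members 0 were raised in either comparison. Whether these factors act on the members was not tested.

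In contrast to Krt19 and Krt8, markers of the epidermis were higher in the tumours. Of 12 basal and suprabasal keratinocyte genes, 12 rose in K5/K14 tumours (median 2.24) and 11 in Ivl tumours (median 2.48), and none fell, also with library totals (11 and 9 rose). They summed to 6072 to 12806 CPM in skin and 37517 to 105870 in the tumours. Krt14 (3.74) and Ivl (6.42) were the largest in K5/K14 tumours, Ivl (4.72) and Krt1 (3.72) in Ivl tumours. The endothelial list (2 of 8 raised and 1 lowered in K5/K14, 1 raised in Ivl tumours), the fibroblast list (1 of 7 lowered in K5/K14 tumours, 0 in Ivl) and the macrophage list (0 of 6 in both) had few genes that passed, among them Tie1 (1.81) and Emcn (2.22 in K5/K14 and 1.54 in Ivl tumours), of blood vessels, and Dcn (-2.36), of connective tissue. These counts moved with the setting. With library totals 3 of 6 macrophage genes were lowered in both comparisons, and 3 of 7 fibroblast and 2 of 8 endothelial genes in Ivl tumours. Within the 15 libraries 3 of 6 macrophage genes were lowered in K5/K14 tumours, where 42.3% of all genes were. In Ivl tumours 1 macrophage, 3 fibroblast and 1 endothelial genes were lowered there.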

How the data were processed

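RNA of 15 tumours and 4 samples of normal skin was sequenced from poly(A) libraries made with a strand-specific kit. The deposited table holds estimated counts per gene: per the methods of the study and the labels, the authors trimmed reads with Trim Galore, aligned them to GRCm38 (Ensembl release 100) with HISAT2 2.1.0, counted them per gene with featureCounts of Subread 1.6.3 and adjusted the table for batch with ComBat-seq. Whether strand was used in counting is not given in the sources used here. Values were whole, so rounding changed nothing, and they are not scaled for depth. The design had assumed plain counts.

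The filter asked for 5 or more counts in 1 or more libraries, which left 32031 of 34807 genes. edgeR 4.0.16 in R 4.3.3 was used with TMM scaling and the quasi-likelihood F test, two-sided, over all 19 libraries in 3 groups, or 4 groups for K5 against K14, with p-values adjusted by Benjamini-Hochberg over all genes tested and called under 0.05. The log2 CPM and ratios use a prior count of 2. No within-group pair of libraries agreed within sampling noise (37 pairs). Simulated data with known changes were used to test the fit. Alternatives were DESeq2 1.42.0, its size factors, other filters, 15 libraries, a term for the 4 libraries, a replicate block, leaving out each library, a prior count of 0.5, and, chosen after seeing the data, library totals and transcript length. Members and lists were chosen with earlier results of these data known. Named were all members, the 3 genes most like each, Krt5, Krt14, Krt1, Krt10 and Sox2, and of each list up to 2 genes with the largest change among those called. Others, such as Krt8-ps, Gm671, Atoh1 and Krt23, were added after their values were seen. Gene models came from GENCODE mouse release M21.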

Additional observations from a re-analysis of the deposited data

Results flagged for a closer look

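In 30 groups of 4 to 9 values, 6 held a library that stood apart by Dixon's test. Its rate of about 1 in 20 holds for separate groups of normally spread values. Here K5 and K14 values recur in the K5/K14 groups, so the 6 cannot be set against that rate. Krt7 was 4.96 CPM in Ivl tumour 1, with the next highest Ivl tumour at 2.18. It was 7.86 CPM in K14 tumour 2, and the next value was 2.30 among K14 tumours and 3.14 among K5/K14 tumours, so this library stood apart in both groups. Krt18 was lowest among K14 tumours in the same library, at 0.668 CPM against 2.47 for the next. Krt18 was highest among K5/K14 tumours in K5 tumour 4, at 8.09 CPM against 3.52 for the next. The log2 ratio of Krt8 to Krt18 was highest among K14 tumours in K14 tumour 1, at -1.04 against -3.30 for the next.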

How the results depend on the processing

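Of 200 values under alternatives other than leaving out a library, 173 kept their direction and their side of the threshold, as did 576 of 622 with 1 library left out. The fall of Krt19 in K5/K14 tumours was among them under every alternative run. For the values that follow the cause was not tested.

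With library totals, chosen after seeing the data, 18328 genes changed in Ivl tumours against skin, and the log2 fold changes were -0.00348 for Krt7, -0.0582 for Krt18 and -1.91 for Krt19 (now past the threshold). Krt18 was at -0.35 in K5/K14 tumours against skin and Krt19 at -0.0678 in K5 against K14. Transcript length, added in the same way, changed no call of the type II to type I ratio and moved the level of Krt7 per kb by over 1.5 times, from 0.280 to 0.483 in Ivl tumours, so that it passed Krt8 and Krt19 there. Within the 15 libraries 17566 genes changed in Ivl tumours against skin, with Krt8 at -2.65 and Krt19 at -2.12, both past the threshold, and the Krt8 to Krt18 ratio at -3.45 no longer past it. Against K5/K14 tumours 131 genes changed, and Krt8 (-0.84), Krt18 (-0.00441) and the ratio (-0.37) turned. Between K5 and K14, 17 genes changed. In the 11 tumours the r of Krt7 and Krt19 was 0.35. With a term for the 4 libraries, Krt19 was at -1.91 in Ivl tumours against skin (adjusted p = 0.0419, edgeR), 449 genes changed in Ivl against K5/K14 tumours with Krt8 at -0.14, and Krt19 was at -0.12 in K5 against K14. DESeq2 called 2133 genes in Ivl against K5/K14 tumours (756 in edgeR) and 173 in K5 against K14.

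Replicate numbers are shared by the groups. Same-numbered pairs were on median about as alike as others (r of -0.007 over 25 pairs and -0.008 over 109). Of the 25 pairs, 9 correlated over 0.1. With the number as a block, Krt8 in K5/K14 tumours against skin was at -1.99 (adjusted p = 0.0641, edgeR), 46 genes changed in Ivl against K5/K14 tumours and Krt7 was at 0.0311 there. The Krt8 to Krt18 ratio was then -2.44 in Ivl and -3.16 in K5/K14 tumours against skin, over 4 pairs, where the smallest p is 0.125.

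Leaving out 1 library at a time, Krt19 in Ivl tumours against skin ranged from -1.81 to -1.09 and Krt8 in K5/K14 tumours from -2.37 to -1.40. In Ivl against K5/K14 tumours 127 (without K5 tumour 1) to 1328 genes (without K14 tumour 1) changed, 12 libraries moving the count by over 1.5 times: it was 386 without Ivl tumour 2, 456 without Ivl 3, 1180 without Ivl 5, 295, 135, 192 and 222 without K5 2, 3, 4 and 5, 214 and 196 without K14 3 and 4 and 434 without skin 3. There Krt7 ranged from -0.85 to 0.13, Krt8 from -0.0875 to 1.05, Krt18 from -0.0534 to 0.53 and the type II to type I ratio from -0.61 to 0.00119. In K5 against K14, Krt8 ranged from -0.24 to 1.57, Krt19 from -0.20 to 0.63 and the Krt8 to Krt18 ratio from -0.54 to 0.33. Against skin, that ratio ranged from -2.99 to -2.35 in Ivl tumours and the type II to type I ratio from -1.37 to -0.82. The r of Krt7 and Krt19 ranged from -0.29 to 0.11 and that of Krt8 and Krt18 from 0.65 to 0.79. Single counts of Krt8 in 2 tumours limit its ratio and its correlations.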
